A study of Mus musculus with 20 samples.

Results

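Transcripts of 10 mouse Serpina genes were followed in liver: Serpina1a, Serpina1b, Serpina1c, Serpina1d, Serpina1e, Serpina3k, Serpina3m, Serpina3n, Serpina6 and Serpina10. They were taken by symbol from a liver table of 24972 gene symbols, and all 10 were present and reached the level for testing. The serpins of this group are plasma proteins that mostly trap and inactivate proteases. The inhibitor offers an exposed loop, the protease cuts it, and the pair stays locked together. The Serpina1 genes encode α1-antitrypsin, best known in humans as the inhibitor of neutrophil elastase, and mice carry several copies of what is a single gene in humans. The Serpina3 genes are the mouse relatives of human α1-antichymotrypsin. Hepatocytes make and secrete most of these proteins, and Serpina6 and Serpina10 are relatives with other tasks, cortisol and corticosterone transport and the control of coagulation.

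Liver RNA came from mice fed for 6 weeks, in 4 groups: WT on alcohol diet (n = 4), WT on control diet (n = 4), RageΔMye on alcohol diet (n = 3) and RageΔMye on control diet (n = 3). All 14 liver libraries are labelled total liver and male. How the RageΔMye mice were made, and in which cells the change acts, is not given in the sources used here. A second table holds RAW264.7, an established mouse line of macrophage-like cells, given [O] HMGB1 + IL1β (n = 3) or BSA (n = 3) for 6 hours. Nothing in the labels says that replicates came from separate animals, so p-values measure only the spread between these libraries. Values are TPM, a scale per transcript length, and the number of reads behind them is unknown.

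The libraries had marked differences apart from diet. Ager, which encodes RAGE, was at 93.07 to 166.2 TPM in the libraries labelled RageΔMye and at 0.0194 to 0.478 TPM in WT, opposite to the genotype label. Genes above 0 TPM numbered 7596 to 8502 in the libraries labelled RageΔMye and 15113 to 15599 in WT. The share of TPM on genes that have an overlapping exon on the other strand was 55.8% to 61.7% in the libraries labelled RageΔMye and 15.4% to 18.3% in WT. In WT, Xist was at 17.8 to 27.3 TPM on alcohol and 0.00165 to 0.135 TPM on control diet, and 4 Y-linked genes summed to 0 to 0.0161 TPM on alcohol and 11.3 to 16.6 TPM on control diet. The Y-linked sum was 0.276 to 1.74 TPM in RageΔMye alcohol libraries and 3.16 to 4.50 TPM in RageΔMye control libraries, and Xist in these libraries was at 0.322 to 0.990 TPM on alcohol and 0 to 3.10 TPM on control diet. The Y-linked sum did not overlap between the diets in either genotype, and Xist did not overlap in WT. The diet and these differences in sex-linked transcripts cannot be told apart, and that holds for every diet result given here, in WT and in the libraries labelled RageΔMye. The 6 hepatocyte markers measured summed to 130786 to 149828 TPM in WT alcohol libraries and 110414 to 135682 TPM in WT control libraries, and none of them passed the test in either genotype.

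All 10 genes lie within 800 kb of mm10 chromosome 12 (chr12:103614786-104414329, GENCODE vM21 annotation, protein-coding). From the low-coordinate end they run Serpina10, Serpina6, the Serpina1 genes (1b and 1d, then 1a, 1c and 1e) and, beyond several other Serpina genes, Serpina3k, Serpina3m and Serpina3n. The Serpina1 genes, Serpina6 and Serpina10 are on the minus strand and the Serpina3 genes on the plus strand. Across their coding sequences the 5 Serpina1 genes were identical at 96.3% to 98.5% of aligned bases over 10 pairs, and the 3 Serpina3 genes at 83.5% to 91.8%. Serpina1a and Serpina3n were identical at 60.5%.

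The Serpina1 genes differ most where the protein meets its protease. The 90-base coding window with the most varying positions lies in the last exon and holds the reactive-centre loop region. It had 20 positions that vary among the 5 genes, against a median of 5 over windows of that length. They are shown because they separate the copies whose levels are compared here, and capitals mark the positions that vary (mm10, minus strand, 5′ to 3′).
Serpina1a, chr12:103853725-103853814: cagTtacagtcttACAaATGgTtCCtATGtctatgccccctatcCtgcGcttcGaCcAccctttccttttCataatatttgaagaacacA
Serpina1b, chr12:103728292-103728381: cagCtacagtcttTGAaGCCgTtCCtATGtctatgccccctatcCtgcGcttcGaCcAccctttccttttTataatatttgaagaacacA
Serpina1c, chr12:103895062-103895151: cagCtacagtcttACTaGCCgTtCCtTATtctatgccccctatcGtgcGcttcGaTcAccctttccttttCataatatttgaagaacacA
Serpina1d, chr12:103763730-103763819: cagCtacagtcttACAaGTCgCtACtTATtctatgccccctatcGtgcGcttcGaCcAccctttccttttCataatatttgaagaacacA
Serpina1e, chr12:103947068-103947157: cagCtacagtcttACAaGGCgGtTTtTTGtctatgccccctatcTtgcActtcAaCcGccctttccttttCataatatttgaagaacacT
The codon just before tctatgccccctatc, a run of 15 unvarying bases, which by position matches the residue ahead of the cut bond in human α1-antitrypsin, is ATG in Serpina1a and Serpina1b, TAT in Serpina1c and Serpina1d, and TTG in Serpina1e. Serpina1e differed from the other Serpina1 genes at 11 to 13 bases of the window, and those differed among themselves at 5 to 10.

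Such near-identity limits how reads can be assigned. Of all 100-base windows of the transcripts, the share found exactly in another gene was 58.5% for Serpina1c, 49.9% for Serpina1a, 29.3% for Serpina1d, 20.6% for Serpina1b and 14.8% for Serpina1e. It was 6.09% for Serpina3m, 4.85% for Serpina3k and 0.2% for Serpina3n, and 0% for Serpina6 and Serpina10. How the authors' counting divided shared reads is not given in the sources used here, so the levels of single Serpina1 genes are uncertain to that extent. The annotations of Serpina1b and Serpina1d, and of Serpina3k and Serpina3m, also overlap on the same strand. Serpina1c has an opposite-strand exon partner, B430119L08Rik, which is not analysed here.

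In WT control liver the members ranked among the most abundant transcripts. Serpina3k averaged 23670.3 ± 4448 TPM and had rank 3 among all genes, followed by Serpina1e at 22303.5 ± 6171 TPM (rank 4), Serpina1c at 14263 ± 899 TPM (rank 7) and Serpina1b at 11580.3 ± 433 TPM (rank 16; SD, n = 4 throughout). Then came Serpina1a (7312 ± 121 TPM), Serpina1d (6164 ± 498 TPM), Serpina3n (4120.4 ± 3326 TPM), Serpina3m (1690 ± 1016 TPM), Serpina10 (629 ± 250.2 TPM) and Serpina6 (391 ± 73.2 TPM). Neighbours in this order whose libraries did not overlap were Serpina1c and Serpina1b, Serpina1b and Serpina1a, and Serpina1a and Serpina1d. The other neighbours overlapped. In WT alcohol liver the order was Serpina3k (15799.6 ± 2861 TPM), Serpina1b (11722 ± 1153 TPM), Serpina3n (10591 ± 1570 TPM), Serpina1c (8445 ± 835 TPM), Serpina1a (6223 ± 555 TPM), Serpina1d (6141 ± 292 TPM), Serpina3m (3864.5 ± 606 TPM), Serpina6 (1245 ± 225 TPM), Serpina10 (1052 ± 55.2 TPM) and Serpina1e (582 ± 434 TPM). Steps without overlap there were Serpina1c to Serpina1a, Serpina1d to Serpina3m, Serpina3m to Serpina6 and Serpina10 to Serpina1e. Together the 10 genes held 6.57% ± 0.556 of all TPM in WT alcohol liver and 9.21% ± 1.08 in WT control liver (SD, n = 4 each).

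**Figure D1:**
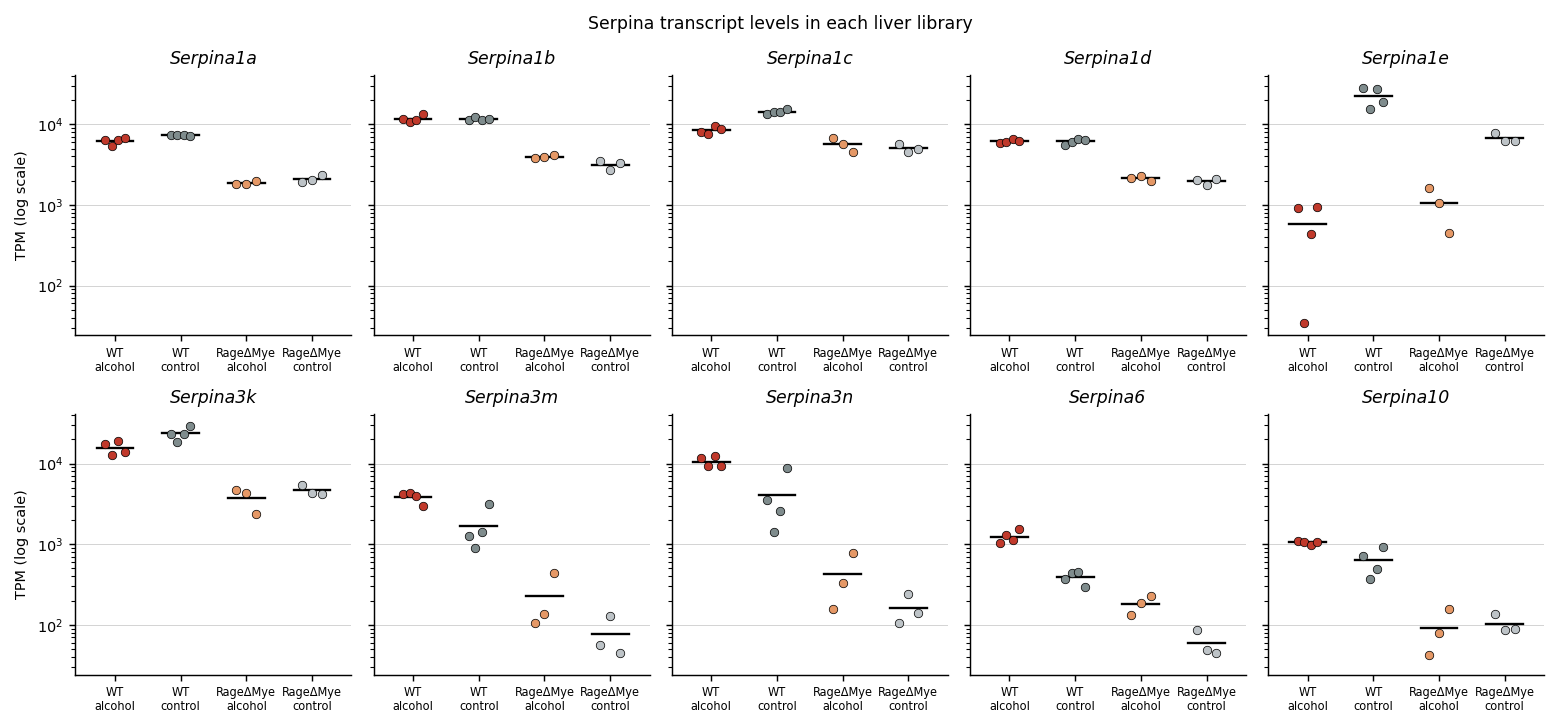
TPM (log axis) of each of the 10 genes in every liver library, with a point per library and a line at the group mean, for WT alcohol, WT control, RageΔMye alcohol and RageΔMye control from left to right. Serpina1e in WT lay between 33.95 and 937 TPM on alcohol and between 15429.5 and 27773 TPM on control diet, while Serpina1b and Serpina1d overlapped between the diets.

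The diet comparison in WT asked what 6 weeks of alcohol changed. Of the 10 members, 7 passed the test (limma on the 8 WT libraries, Benjamini-Hochberg adjusted p under 0.05), against a background of 31.2% of the 9747 genes tested. Serpina3m, Serpina3n, Serpina6 and Serpina10 were higher on alcohol (background 13.3%), and Serpina1c, Serpina1e and Serpina3k were lower (background 17.9%). Serpina1a, Serpina1b and Serpina1d did not pass. The median log2 change was 0.005 over the members and -0.047 over all genes tested. The libraries of the diets did not overlap for 6 members, Serpina1a, Serpina1c, Serpina1e, Serpina3n, Serpina6 and Serpina10, against a background of 30.8%. In these bulk samples, fewer cells of a type and less RNA per cell cannot be told apart.

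Among the α1-antitrypsin genes, Serpina1e fell by the most. It was at 925, 33.95, 433 and 937 TPM in WT alcohol libraries, against 27773, 15429.5, 27254 and 18758 TPM in the WT control libraries. Every alcohol library was far below every control library, and alcohol replicate 2 was the lowest. The alcohol mean was 38.3-fold lower than the control mean, and the log2 change was -6.00 (SE 0.868, limma adjusted p = 8.85e-04). Without alcohol replicate 2 the log2 change was -4.91 (limma adjusted p = 6.68e-06). Serpina1e took the last place in the level order of the 10 genes in WT alcohol liver, against the second place in WT control liver.

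Serpina1c also fell. It was at 8008, 7599, 9511 and 8663 TPM in WT alcohol libraries, against 13269, 14083.5, 14252 and 15448 TPM in WT control libraries. The groups did not overlap, and the log2 change was -0.76 (SE 0.113, limma adjusted p = 0.00104).

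The other 3 Serpina1 genes did not pass the test. Serpina1a was at 6325, 5427, 6432 and 6708 TPM in WT alcohol libraries, against 7406.5, 7373, 7334 and 7135 TPM in WT control libraries. These groups did not overlap, but the log2 change of -0.24 (SE 0.106) missed the threshold (limma adjusted p = 0.112). Serpina1b ran from 10659 to 13357 TPM on alcohol, against 11190.4 to 12155 TPM on control diet, with overlap (log2 change 0.01, SE 0.109, limma adjusted p = 0.935). Serpina1d ran from 5871 to 6508 TPM on alcohol, against 5503 to 6642 TPM on control diet, also with overlap (-0.003, SE 0.106, limma adjusted p = 0.987; 0.13 after quantile normalization).

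The summed Serpina1 transcripts, in which reads divided among these copies are added together but Gm8893, with which each shares sequence, is left out, averaged 33114 ± 2654 TPM in WT alcohol liver and 61623 ± 5349 TPM in WT control liver (SD, n = 4 each). That was 3.31% ± 0.265 of TPM on alcohol and 6.16% ± 0.535 on control diet, without overlap. Serpina1e made up 2.83%, 0.114%, 1.26% and 2.61% of that sum in the alcohol libraries, against 42.6%, 28.0%, 40.9% and 31.6% in the control libraries. Without Serpina1e the sum was 32532 ± 2351 TPM on alcohol and 39319 ± 1336 TPM on control diet.

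**Figure D2:**
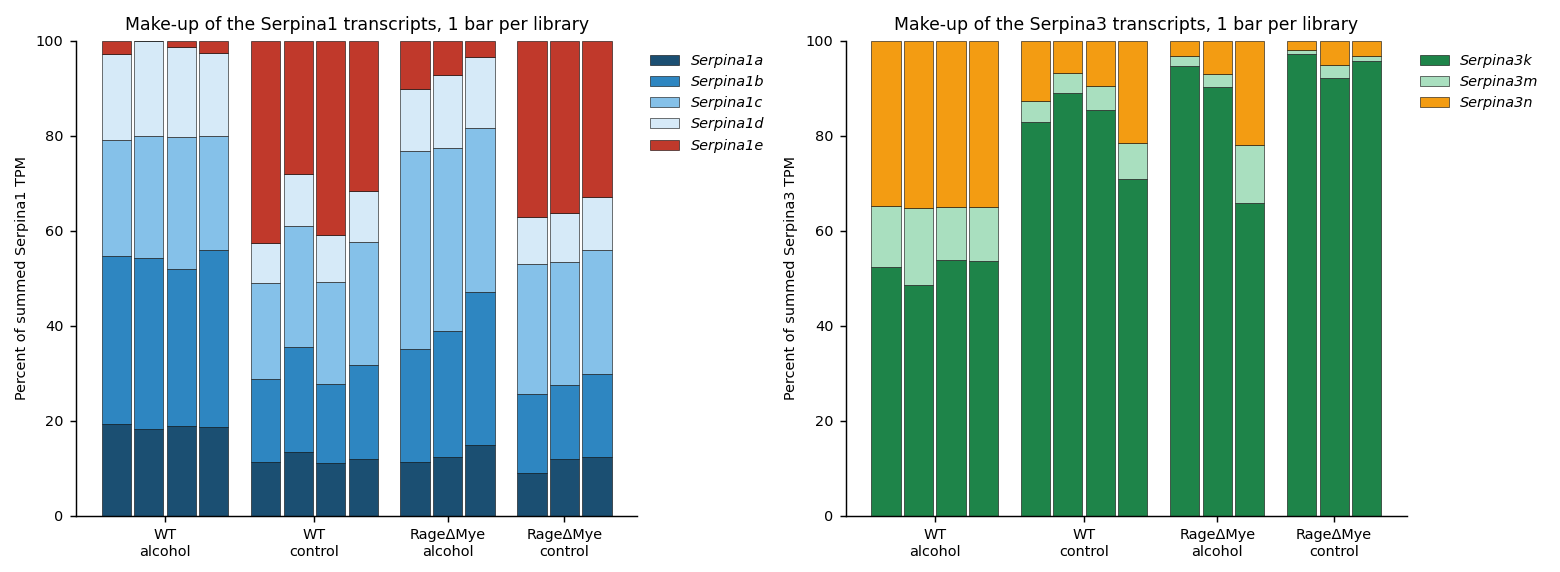
Percent of the summed Serpina1 TPM (left) and of the summed Serpina3 TPM (right) taken by each gene, with a stacked bar per liver library, for WT alcohol, WT control, RageΔMye alcohol and RageΔMye control from left to right. Serpina1e took 0.114% to 2.83% of the Serpina1 sum in WT alcohol libraries and 28.0% to 42.6% in WT control libraries, and Serpina3n took 34.8% to 35.3% of the Serpina3 sum in WT alcohol libraries and 6.75% to 21.5% in WT control libraries.

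The 3 Serpina3 genes went in different directions. Serpina3k, whose product is also called contrapsin, was at 17431, 12810.3, 18931 and 14026 TPM in WT alcohol libraries, against 23105, 18672, 23404 and 29500.5 TPM in WT control libraries. The groups overlapped through alcohol replicate 3 and control replicate 2, and Serpina3k fell by 0.58 on the log2 scale (SE 0.172, limma adjusted p = 0.0271). This call was lost when control replicate 1, 3 or 4 or alcohol replicate 2 or 4 was left out (limma adjusted p = 0.0506 to 0.0698).

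Serpina3n, an acute-phase serpin that inhibits granzyme B among other proteases, was at 11566, 9311, 12286 and 9199.9 TPM in WT alcohol libraries, against 3528, 1418, 2599 and 8937.5 TPM in WT control libraries. Control replicate 4 came close to the alcohol libraries, and the groups did not overlap. The log2 change was 1.68 (SE 0.436, limma adjusted p = 0.0160), or 2.16 without control replicate 4 (limma adjusted p = 3.37e-04). Serpina3m, its neighbour in the cluster, was at 4239, 4288, 3948 and 2983 TPM in WT alcohol libraries, against 1263, 895.1, 1424 and 3176 TPM in WT control libraries. Here control replicate 4 lay above alcohol replicate 4, and the log2 change was 1.35 (SE 0.319, limma adjusted p = 0.0106).

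The summed Serpina3 transcripts had means close together, at 30255 ± 4624 TPM in WT alcohol liver and 29480.3 ± 8682 TPM in WT control liver, with overlap (SD, n = 4 each). Their make-up did differ: Serpina3n held 35.0% ± 0.198 of the sum on alcohol and 12.6% ± 6.40 on control diet, and Serpina3k held 52.1% ± 2.45 on alcohol and 82.0% ± 7.83 on control diet.

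Serpina6 encodes corticosteroid-binding globulin, a serpin that carries glucocorticoids in blood and does not act as a protease inhibitor. It was at 1026, 1307, 1113.5 and 1532.5 TPM in WT alcohol libraries, against 365, 442, 457 and 299 TPM in WT control libraries. All 4 alcohol libraries were above all 4 control libraries (log2 change 1.67, SE 0.169, limma adjusted p = 8.83e-05). Of the 10 members this had the smallest adjusted p.

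Serpina10 encodes the protein Z-dependent protease inhibitor, which acts on activated coagulation factors X and XI. It was at 1105, 1050.2, 976 and 1077 TPM in WT alcohol libraries, against 719, 374, 487 and 937 TPM in WT control libraries. The groups did not overlap, with control replicate 4 again the highest of its group (log2 change 0.83, SE 0.240, limma adjusted p = 0.0255). This call was lost when control replicate 3 or alcohol replicate 1, 2 or 4 was left out (limma adjusted p = 0.0505 to 0.0738).

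WT control replicate 4 was the highest control library for Serpina1c, Serpina3k, Serpina3m, Serpina3n and Serpina10, and the lowest for Serpina1a and Serpina6. The summed TPM of 14 acute-phase genes was 134039.8, 133126, 149798 and 107672 in the WT alcohol libraries, against 71847, 33909, 44243 and 84895 in the WT control libraries. Control replicate 4 was the highest control library in that sum too. Without it the log2 change was 1.71 for Serpina3m (limma adjusted p = 1.6e-04), 1.05 for Serpina10 (limma adjusted p = 0.00273) and -0.47 for Serpina3k (limma adjusted p = 0.0506).

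**Figure D3:**
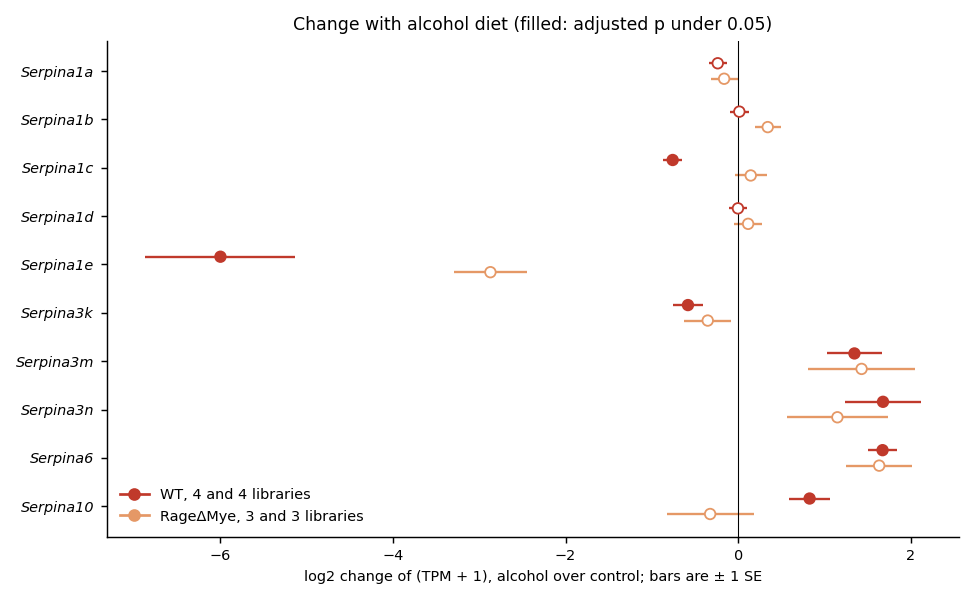
Log2 change of TPM + 1, alcohol over control, for the 10 genes, with WT (4 and 4 libraries) above RageΔMye (3 and 3 libraries) in each pair and bars of ± 1 SE. Filled points passed at an adjusted p under 0.05 in limma: 7 genes in WT, from -6.00 for Serpina1e to 1.68 for Serpina3n, and none in the libraries labelled RageΔMye.

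Ratios between paralogues within each library were compared next, since they are free of scaling between libraries. Of 13 pairs, 10 within Serpina1 and 3 within Serpina3, 11 had ratios that did not overlap between the WT diets (exact permutation test, two-sided, p = 0.0286, the smallest that 4 against 4 allows, adjusted p = 0.0338 over the 13 pairs). Over all pairs of genes tested in WT, 36.2% had ratios without overlap. The 13 pairs share genes and are not independent of each other, and 4 of the 11 contain Serpina1e. The ratio of Serpina1c to Serpina1d, a pair alike in that loop codon, was 0.46 ± 0.08 on alcohol and 1.21 ± 0.078 on control diet (log2, SD, n = 4 each). The ratio of Serpina3k to Serpina3n was 0.57 ± 0.075 on alcohol and 2.83 ± 0.846 on control diet on the same scale. The remaining pairs overlapped. Serpina1b to Serpina1d was 0.93 ± 0.134 on alcohol and 0.91 ± 0.132 on control diet (exact permutation p = 0.83), and Serpina3m to Serpina3n was -1.46 ± 0.242 on alcohol and -1.13 ± 0.425 on control diet (exact permutation p = 0.229, adjusted p = 0.248).

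The 5 Serpina1 promoters share sequence. In the RefSeq promoter table (GRCm38.p6, 250 bases before to 50 after each start), which matched 6 of the 10 members, all 5 Serpina1 genes held the same 59 bases, found in the promoter of no other gene. The run is shown because these promoters have this stretch in common. It begins 117 bases before the annotated start in Serpina1e and 55 to 66 bases before it in the other Serpina1 genes. The part of the promoters in the diet changes was not tested. Capitals mark GTTAAT, a motif found in promoters of hepatocyte genes and chosen after the sequence was seen (minus strand, 5′ to 3′).
Serpina1e, chr12:103956956-103957014: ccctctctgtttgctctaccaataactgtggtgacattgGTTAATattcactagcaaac
GTTAAT, searched on both strands, was in 5 of the 6 member promoters and in 7.1% of the 32851 promoters in the table. The shared run itself holds GTTAAT, so those 5 promoters had to match and are not separate hits. TTGCNNAA, a C/EBP-type motif, was in 4 of 6 and in 10.8% of all promoters, and TTCNNNGAA, a STAT-type motif, was in 0 of 6 and in 8.3%. The 4 promoters with TTGCNNAA all belong to Serpina1 genes, which share promoter sequence, so they may not be separate hits. None of these letter patterns contains another, and a match is a description only.

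Other Serpina genes were read beside the members. Of 15 others on chromosome 12, 8 reached the level for testing in WT. Of these, 3 were higher and 2 lower on alcohol (backgrounds 13.3% and 17.9% of all genes tested). Serpina7, which encodes thyroxine-binding globulin, lies on chromosome X and was higher (1.38, limma adjusted p = 0.00293); it is named after its values were seen. Serpina4-ps1, an annotated pseudogene between the Serpina1 and Serpina3 groups, averaged 4.52 TPM in WT alcohol liver and 239.9 TPM in WT control liver (log2 change -5.50, limma adjusted p = 4.37e-07). Serpina12, which encodes the adipokine vaspin and lies between Serpina1e and that pseudogene, was at 7.46 TPM on alcohol and 41.98 TPM on control diet (-2.46, limma adjusted p = 7.65e-04). Serpina3g was at 24.2 TPM on alcohol and 8.46 TPM on control diet (1.39, limma adjusted p = 0.00155), and Serpina3i at 2.05 TPM on alcohol and 0.352 TPM on control diet (1.17, limma adjusted p = 0.00143). Serpina11, next to Serpina1e and named after its values were seen, did not pass (-0.12, limma adjusted p = 0.432).

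**Figure D4:**
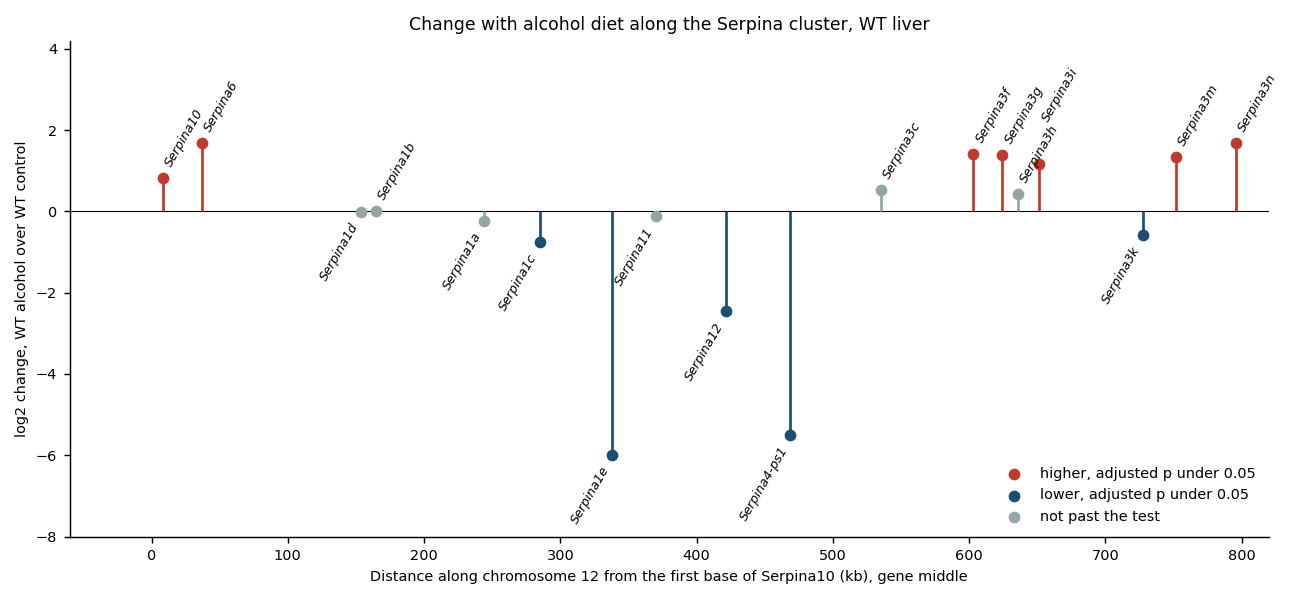
Log2 change of TPM + 1 in WT liver, alcohol over control, for the members and the other tested Serpina genes of the cluster, against distance in kb along chromosome 12. The rises of Serpina10 (0.83) and Serpina6 (1.67) stand at one end, followed by the falls of Serpina1c (-0.76), Serpina1e (-6.00), Serpina12 (-2.46) and Serpina4-ps1 (-5.50), with Serpina11 among them at -0.12. In the Serpina3 stretch Serpina3k was lower (-0.58), and Serpina3n (1.68), Serpina3m (1.35), Serpina3f (1.42), Serpina3g (1.39) and Serpina3i (1.17) were higher.

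Genes that act with the members were counted from chosen lists. Over all genes tested in WT, 13.3% were higher on alcohol and 17.9% lower. Of 9 tested proteases and cofactors in WT, 2 were higher on alcohol and 4 lower, among them Prtn3, the neutrophil proteinase (log2 change -1.22), Cela1, an elastase gene (-0.91), Gzmb, granzyme B (0.62), and Klkb1, plasma kallikrein (-0.70). None of 16 genes for folding and export of secreted proteins passed in WT, the nearest being Sec24a (0.42, limma adjusted p = 0.0536) and Edem1 (0.48, limma adjusted p = 0.0826). Of 8 other plasma serpins, 3 were higher and 1 lower, among them Serpine2 at -2.63, Agt at 1.03 and Serpinf2 at 0.34.

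The same backgrounds, 13.3% higher and 17.9% lower, stand beside the counts that follow. Of 15 tested transcription factors of hepatocytes and cytokine signalling, 3 were higher on alcohol and 3 lower. Cebpa (-0.92) was among the lower ones, and Cux2 (1.51), a liver repressor whose expression differs between the sexes in mice, and Stat3 (0.95) were among the higher ones. Of 10 glucocorticoid genes, read beside Serpina6, 3 were higher and 2 lower, among them Srd5a1 (-2.32), Sgk1 (1.46), Tsc22d3 (-1.56) and Tat (0.82). Of 14 acute-phase genes, read beside Serpina3n, 11 were higher and none lower, with Orm1 (1.26), Lcn2 (3.53), Hpx (0.97) and Fgb (1.20) among them. All 4 tested neutrophil markers were higher in WT on alcohol, summing with 2 untested ones to 100.4 to 151.5 TPM against 28.7 to 74.0 TPM on control diet. None of 5 Kupffer cell markers passed, and they summed to 124.1 to 280.6 TPM on alcohol and 166.8 to 181.3 TPM on control diet. Of the tested markers, 1 of 4 endothelial genes (Lyve1, 1.64) and 1 of 3 stellate genes (Dcn, 0.71) were higher, and the 1 cholangiocyte gene tested did not pass. The part of these markers in the members' changes was not tested.

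In the libraries labelled RageΔMye the order of levels was led by Serpina1c (5654 ± 1121 TPM), Serpina1b (3984 ± 203 TPM) and Serpina3k (3791 ± 1263 TPM) in RageΔMye alcohol liver, and by Serpina1e (6771 ± 883 TPM), Serpina1c (5071 ± 642 TPM) and Serpina3k (4667.5 ± 701 TPM) in RageΔMye control liver (SD, n = 3 each).

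The same diet comparison in the libraries labelled RageΔMye called none of the 10 members (limma on the 6 libraries, adjusted p under 0.05), against a background of 0.0374%, or 4 of 10689 genes. No gene of the lists named above passed either. On simulated libraries as variable as the real ones of their group, this fit missed most of the changes put in. The lack of calls therefore does not show that the members were unchanged. At an unadjusted p under 0.05 there were 747 genes and 2 members. A fit of all 14 libraries with a shared spread called 657 of 12069 genes, among them 1 member, Serpina6 (limma adjusted p = 0.00463). That fit ignores the wider spread of the libraries labelled RageΔMye, so no weight is put on this call.

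The members at an unadjusted p under 0.05 in limma were Serpina1e and Serpina6. Serpina1e was at 1640.5, 1053 and 451 TPM in RageΔMye alcohol libraries, against 7790.3, 6292 and 6232 TPM in RageΔMye control libraries. The groups did not overlap, and the log2 change was -2.87 (SE 0.420, limma adjusted p = 0.0948). Serpina6 was at 133, 186 and 231 TPM in RageΔMye alcohol libraries, against 85.2, 48.2 and 45.0 TPM in RageΔMye control libraries. These groups did not overlap either (log2 change 1.63, SE 0.381, limma adjusted p = 0.265). The lower Serpina6 values are not far above the most frequent value above 0 in these libraries, 14.38 to 20.55 TPM. Serpina1b also showed no overlap, at 3827 to 4213 TPM on alcohol and 2723 to 3466 TPM on control diet (0.34, limma adjusted p = 0.672), which makes 3 members without overlap, against a background of 11.7% of genes.

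The Serpina1 sum averaged 14690 ± 1542 TPM in RageΔMye alcohol liver and 19074 ± 1828 TPM in RageΔMye control liver (SD, n = 3 each), without overlap. Serpina1e held 10.1%, 7.12% and 3.45% of it on alcohol, against 37.2%, 36.4% and 32.9% on control diet. Without Serpina1e the sum was 13642 ± 949 TPM on alcohol and 12303 ± 1140 TPM on control diet, with overlap. Its mean was thus higher on alcohol here, and lower on alcohol in WT. Serpina1c, at 6749, 5703 and 4509 TPM on alcohol against 5753, 4478 and 4982 TPM on control diet, overlapped (0.14, limma adjusted p = 0.793). Serpina1a ran from 1831 to 1958 TPM on alcohol and from 1901 to 2364 TPM on control diet (-0.16, limma adjusted p = 0.751), and Serpina1d from 1967 to 2294 TPM on alcohol and from 1755 to 2107 TPM on control diet (0.12, limma adjusted p = 0.814), both with overlap.

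Serpina3n, Serpina3m and Serpina10 were low and spread widely in these libraries. The lowest values of Serpina3m and Serpina10 were also not far above the most frequent value above 0 there. Serpina3n was at 158, 326 and 785 TPM in RageΔMye alcohol libraries, against 107, 242 and 142 TPM in RageΔMye control libraries, with overlap (1.15, SE 0.582, limma adjusted p = 0.689). Serpina3m was at 105, 137 and 445 TPM on alcohol, against 56.1, 127 and 44.9 TPM on control diet, with overlap (1.43, SE 0.619, limma adjusted p = 0.672). Alcohol replicate 3 was the highest for both, and without it the change was 0.80 for Serpina3m and 0.55 for Serpina3n. Serpina3k, among the most abundant members, was at 4755.5, 4257 and 2361 TPM in RageΔMye alcohol libraries, against 5469, 4363 and 4171 TPM in RageΔMye control libraries. These groups overlapped (-0.35, SE 0.270, limma adjusted p = 0.751), and without alcohol replicate 3, the lowest library, the change was -0.04. Serpina10 was at 42.1, 79.0 and 156 TPM on alcohol, against 138, 85.2 and 87.9 TPM on control diet (-0.33, SE 0.505, limma adjusted p = 0.841), and the change was 0.13 without alcohol replicate 1 and -0.80 without alcohol replicate 3. Of the 13 paralogue ratios, 6 did not overlap between the diets here, against a background of 12.5% of all pairs of tested genes, and 4 of the 6 contain Serpina1e. A comparison of 3 against 3 cannot go below an exact permutation p of 0.1.

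The alcohol effect was then compared between genotypes, each change in the libraries labelled RageΔMye minus that in WT. No member passed (limma with library weights per genotype), against a background of 0.505% or 61 of 12069 genes. No member had an unadjusted p under 0.05. When tried on simulated libraries that vary as much as the real ones of their group, this fit missed most of the differences put in and many of its calls were false, so neither its calls nor the lack of a member among them shows whether the effects differ. The weights made these intervals wide, so a comparison of the separate fits, chosen after seeing the data, is given beside it. Its background was 0.932%, and again no member was called. On the same simulated libraries this comparison too missed most of the differences put in, so its lack of calls does not show equal effects. In the separate fits the difference was 0.90 for Serpina1c (95% interval 0.44 to 1.37, adjusted p = 0.0773 from the limma estimates). It was 3.13 for Serpina1e (1.07 to 5.18, adjusted p = 0.195 from the limma estimates). For Serpina6 it was -0.04, with a 95% interval of -0.96 to 0.88. In the weighted fit the 95% intervals were -0.13 to 1.94 for Serpina1c, -7.54 to 13.8 for Serpina1e and -2.03 to 1.95 for Serpina6. Each of these runs from a negative to a positive value. None of the intervals, weighted or separate, was adjusted for the number of genes compared. In the fit of all 14 libraries with a shared spread Serpina1c passed (limma adjusted p = 0.0167). That fit ignores the wider spread of the libraries labelled RageΔMye, so no weight is put on this call.

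In RAW264.7 cells all 10 members were listed at 0 TPM in all 6 libraries, with [O] HMGB1 + IL1β and with BSA.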

How the data were processed

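TPM values were made by the authors before they deposited a liver table and a RAW264.7 table, with a column per library. The headers name no unit. It was read from the values, which are not whole and give every library the same total. Library preparation used Illumina's TruSeq Stranded mRNA reagents (per the labels' protocols) and build mm10 was used (per the submitters' processing notes). Which aligner, counter and strand setting were used is not given in the sources used here.

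Changes are on the log2(TPM + 1) scale, which understates those of low genes. A gene entered a fit if 1 of its group means reached 1 TPM. The test was limma 3.58.1 (R 4.3.3) with its intensity trend, and Benjamini-Hochberg adjustment covered every gene in the fit. The WT and RageΔMye libraries had separate fits, and the difference of the diet effects used all 14 with weights per genotype. Paralogue ratios were tested by exact permutation in scipy 1.17.1. The fits were tested on simulated data. The members, lists and tests were chosen with earlier results of these data known. All members are named, and of each list up to 4 passing genes with the smallest adjusted p, or else 2 as values. A few of the list genes so chosen are not reported here. Alternatives were pseudocounts of 0.1 and 0.01 TPM, other filters, thresholds, scalings and fits, and the omission of each library. Positions are from GENCODE vM21 and promoters from RefSeq. Of the 10 members 6 had a promoter in the table. Same-numbered RageΔMye libraries were checked as pairs.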

Additional observations from a re-analysis of the deposited data

How the results depend on the processing

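Members called in WT were 3 rather than 7 with no filter, in the joint fit of all 14 libraries and at an adjusted p under 0.01; these settings dropped Serpina3k, Serpina3m, Serpina3n and Serpina10. Leaving out single libraries gave 5 to 7 members. Genes called in WT were 3042 of 9747 as reported. They were 2160 of 24972 with no filter, 337 of 12069 in the joint fit and 1450 of 9747 at an adjusted p under 0.01. Fewer genes as well as fewer members thus passed in these settings. Genes called in WT were 1881 with a filter at 5 TPM, and 2055 to 3469 with single libraries left out. In the libraries labelled RageΔMye they were 0 with a pseudocount of 0.01, 9 with a filter at 5 TPM, 657 in the joint fit (with 1 member), 0 at an adjusted p under 0.01, 7 with quantile normalization (57.1% of them higher, against 50% as reported and 66.7% of 3 with TPM rescaled without opposite-strand genes), and 0 to 5 with single libraries left out. With the replicate block there were 0 genes and 0 members; same-numbered libraries did not deviate together (correlations 0.018, -0.016 and 0), so the numbers were not taken as pairs. For the difference between genotypes the count was 126 with no filter, 463 in the joint fit (with 1 member), 18 at an adjusted p under 0.01 and 39 with TPM rescaled without opposite-strand genes. The causes were not tested.

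Some changes turned sign, most of them near 0. The larger ones were Serpina10 in the libraries labelled RageΔMye (-0.325 as reported) and the difference between genotypes for Serpina3n (-0.528 as reported). Serpina1d in WT was 0.13 with quantile normalization and 0.034 with the rescaled TPM, and the difference between genotypes was -0.22 for Serpina1a and -0.055 for Serpina1d with quantile normalization. Leaving out single libraries gave ranges of -0.051 to 0.057 for Serpina1b and -0.056 to 0.034 for Serpina1d in WT, -0.80 to 0.13 for Serpina10 in the libraries labelled RageΔMye, and, for the difference, -0.54 to 0.52 for Serpina3m, -0.22 to 0.25 for Serpina6 and -1.12 to 0.029 for Serpina3n. Serpina1c, Serpina1e and Serpina6 kept their direction and passed in WT under every alternative run. The directions of the summed Serpina1 transcripts and of the paralogue pairs that passed did not change under the alternatives run. The summed Serpina3 transcripts in WT did turn sign. Their log2 change was 0.069, with a range of -0.080 to 0.25 when single libraries were left out. The unknown read depth limits the low values, and no counting interval can be given.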
